A study of Mus musculus with 8 samples.

Results

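The genes described here are the matrix metalloproteinases (MMPs), their tissue inhibitors (TIMPs), the ADAMTS proteases and the ADAMTS-like proteins of the juvenile mouse ovary. They were chosen by symbol, as every row of the gene count table named Mmp, Timp, Adamts or Adamtsl with a number and at most 1 letter, except *Adamts1*, and by no measured value. The rule found 50 of 45583 symbols, namely 23 MMPs, 4 TIMPs, 18 ADAMTS proteases and 5 ADAMTS-like genes. Together they held 0.290% of all counts.

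Whole ovaries of female mice aged 3 weeks were sequenced, 1 ovary and 1 library per mouse, from 4 WT and 4 GOAT KO animals. All were on the C57/Bl6 strain, came from crosses of heterozygous parents with no treatment named, and the 2 groups differed by the germline deletion of ghrelin O-acyltransferase (GOAT, encoded by *Mboat4*), the enzyme that acylates ghrelin. The deletion was present in every tissue from conception, so ovarian and systemic effects of it cannot be told apart. The comparison asks whether the levels of these genes differed between the genotypes.

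The ovary is rebuilt throughout life as follicles grow, rupture or regress, and the matrix around them is cut by secreted and membrane-bound zinc proteases. MMPs are made as inactive precursors, cleave collagens, gelatin and other matrix proteins once activated, and are blocked by TIMPs, which bind the active site. ADAMTS proteases carry thrombospondin repeats and cleave procollagens and proteoglycans such as versican, while ADAMTS-like proteins share these repeats but lack the protease domain.

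Counts per library totalled 16147216 to 19481798, and the lists of granulosa markers (4363 to 5401 CPM in sum) and oocyte markers (926 to 1131 CPM) were present in all 8 libraries. CPM are counts scaled to libraries of 1000000 counts, with TMM factors between libraries. *Mboat4* itself gave 1, 1, 1 and 3 counts in the libraries labelled WT and 5, 7, 7 and 8 in those labelled GOAT KO (exact two-sided permutation test, p = 0.0286, the smallest that 4 against 4 libraries can give). The direction of *Mboat4* is opposite to the labels, but its counts lay under the filter on low counts, so no fold change was fitted. A total count does not show which exons of *Mboat4* were read. Every direction here is therefore between libraries labelled GOAT KO and libraries labelled WT. GOAT KO 1139 lay at 1.21 on the first axis of a multidimensional scaling, away from the other 7, and its adipose markers summed to 327 CPM against 8.67 to 21.9 CPM elsewhere. The study set aside 1 library of each group without naming them, and these may not be GOAT KO 1139 and WT 1120. In counts, WT 1120 differed most within WT (chi-square per gene 17.9 to 27.1, against 4.22 to 9.63 among the other WT libraries). On the second scaling axis WT 1118 lay farther out, at 0.756 against -0.429 for WT 1120. The members named with full statistics were also fitted without GOAT KO 1139, without WT 1120 and without both.

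Of the MMP genes, 10 lie side by side on chromosome 9 (GRCm38, chr9:7272514-7699585, a span of 427.1 kb): *Mmp13*, *Mmp12*, *Mmp1b*, *Mmp3*, *Mmp1a*, *Mmp10*, *Mmp8*, *Mmp27*, *Mmp20* and *Mmp7*. These are the interstitial collagenases, 2 stromelysins, matrilysin, macrophage elastase and enamelysin, several of which are known for induction by growth factors and inflammatory signals. In these ovaries *Mmp12* was the 1 gene of the cluster that passed the filter on low counts. *Mmp1a*, *Mmp10* and *Mmp20* had 0 counts in all 8 libraries, and a count of 0 allows up to 3 counts, or 0.154 to 0.186 CPM depending on the library. *Mmp13*, the main collagenase of rodents, had 14, 9, 3 and 3 counts in WT and 4, 5, 4 and 3 in GOAT KO. *Mmp3* had 0 in every WT library and 3, 2, 1 and 0 in GOAT KO.

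Most genes of this cluster held, in the bases before the start, letters that most other members searched lacked. The element bound by AP-1 (the Fos and Jun factors) is TGA(C/G)TCA. It was searched in the wider form TGANTCA, where N is any base, together with TATAAA, the TATA box. Both strands were read in the 250 bases upstream of each RefSeq start. All counts and shares of AP-1 letters given here are of the wider form. The 2 sets of letters may share bases, and a gene with more than 1 start counts once if any of its windows holds them. AP-1 letters were found in 8 of the 10 cluster genes and TATA letters in 7, with both in 7, and *Mmp8* and *Mmp27* held neither. In *Mmp20*, which is among these, the AP-1 letters were TGAATCA, which the stricter form does not include. Of all 32851 windows, 6.75% held the AP-1 letters, 12.4% the TATA letters and 1.21% both. Among the 8 other MMPs with an entry, 0 held the AP-1 letters and 1 (*Mmp21*) the TATA letters. No window was searched for *Mmp2*, *Mmp9*, *Mmp16*, *Mmp17* or *Mmp19*, so what they hold is not known here. None of the 4 TIMPs held either. Of 13 ADAMTS and ADAMTS-like genes with an entry, 0 held the AP-1 letters and 1 (*Adamtsl2*) the TATA letters. The cluster genes are paralogs, so their windows are not independent. A match is a description of the letters and not evidence of a bound site, and in these libraries nearly all of the genes that carry them were close to 0.

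**Figure D1:**
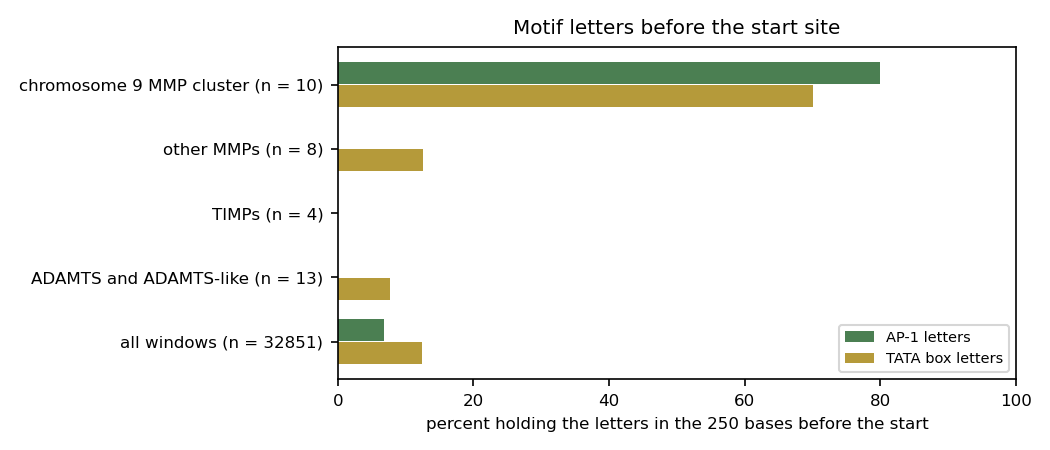
Percent of genes (of windows in the last row) whose 250 bases before the start hold the AP-1 letters (green) or TATA letters (yellow), by group, with the number of genes or windows in brackets. The chromosome 9 MMP cluster stands at 80% and 70%, against 6.75% and 12.4% of all windows.

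The windows of 3 cluster genes with almost no reads (*Mmp13*, *Mmp3* and *Mmp10*) are shown beside those of *Mmp14* and *Timp1*, which were abundant, because they show windows with and without these letters. Each is printed 5′ to 3′ on the gene's strand from RefSeq (GRCm38.p6), with AP-1 and TATA letters in capitals.
Mmp13 (chr9:7272264-7272513, plus strand): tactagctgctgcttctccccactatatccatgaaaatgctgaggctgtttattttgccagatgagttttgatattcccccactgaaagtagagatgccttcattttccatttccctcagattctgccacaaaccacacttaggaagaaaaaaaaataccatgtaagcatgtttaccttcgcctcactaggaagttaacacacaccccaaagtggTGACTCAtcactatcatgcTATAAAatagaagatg
Mmp3 (chr9:7445572-7445821, plus strand): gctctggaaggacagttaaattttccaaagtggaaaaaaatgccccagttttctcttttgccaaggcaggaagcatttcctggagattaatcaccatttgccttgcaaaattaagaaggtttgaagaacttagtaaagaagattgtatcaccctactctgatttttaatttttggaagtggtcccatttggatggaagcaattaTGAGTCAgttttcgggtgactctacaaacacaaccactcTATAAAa
Mmp10 (chr9:7502092-7502341, plus strand): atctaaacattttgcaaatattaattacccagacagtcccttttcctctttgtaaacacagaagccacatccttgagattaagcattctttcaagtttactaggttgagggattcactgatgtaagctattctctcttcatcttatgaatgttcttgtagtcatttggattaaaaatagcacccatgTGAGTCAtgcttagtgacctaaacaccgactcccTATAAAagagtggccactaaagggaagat
Mmp14 (chr14:54431348-54431597, plus strand): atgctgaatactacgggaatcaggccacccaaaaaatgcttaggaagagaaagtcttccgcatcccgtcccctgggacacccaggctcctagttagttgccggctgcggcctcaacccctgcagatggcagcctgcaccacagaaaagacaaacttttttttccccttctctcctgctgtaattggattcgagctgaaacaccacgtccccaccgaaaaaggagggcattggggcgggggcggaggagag
Timp1 (chrX:20869916-20870165, plus strand): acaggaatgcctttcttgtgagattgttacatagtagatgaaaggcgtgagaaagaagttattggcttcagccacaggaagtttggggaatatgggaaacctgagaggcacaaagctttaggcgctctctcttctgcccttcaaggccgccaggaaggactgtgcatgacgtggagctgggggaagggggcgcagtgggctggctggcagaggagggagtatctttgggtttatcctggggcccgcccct
In *Mmp13* the AP-1 letters began 35 bases and the TATA letters 16 bases before the annotated start. In *Mmp3* these distances were 46 and 7 bases, and in *Mmp10* 63 and 29 bases. The windows of *Mmp14* and *Timp1* held neither.

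Levels were compared between genes as CPM per kb of exon. *Mmp11* (stromelysin 3, which does not cleave the classical matrix collagens) stood highest, at 142 CPM per kb with a range of 107.7 to 177 over the 8 libraries, at percentile 98.9 of 15794 tested genes with a known length. It was followed by *Adamts2* (63.4), *Mmp2* (61.3), *Adamts10* (53.7), *Timp2* (52.4), *Mmp23* (38.7), *Mmp14* (34.9), *Timp1* (24.2) and *Timp3* (19.0), all in CPM per kb. These 9 genes held 88.5% of the level summed over the members. The range of *Mmp11* overlapped none of the others, whereas those of *Adamts2* (59.6 to 69.0) and *Mmp2* (56.6 to 68.2) overlapped each other, as did those of *Adamts10* (42.2 to 58.2) and *Timp2* (47.5 to 55.8). *Adamts10* also overlapped *Mmp2* above it and *Mmp23* (33.1 to 45.7) below it. So did *Mmp23* with *Mmp14* (32.4 to 39.6), and *Timp1* (19.0 to 27.3) with *Timp3* (17.4 to 20.6). *Adamts19* came next at 10.4, *Adamtsl2* at 8.49, *Adamts6* at 7.32, *Adamts9* at 6.42 and *Adamts5* at 6.10 CPM per kb. From *Adamts7* at 3.80 CPM per kb downward the other members added less than 1% of the sum each.

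**Figure D2:**
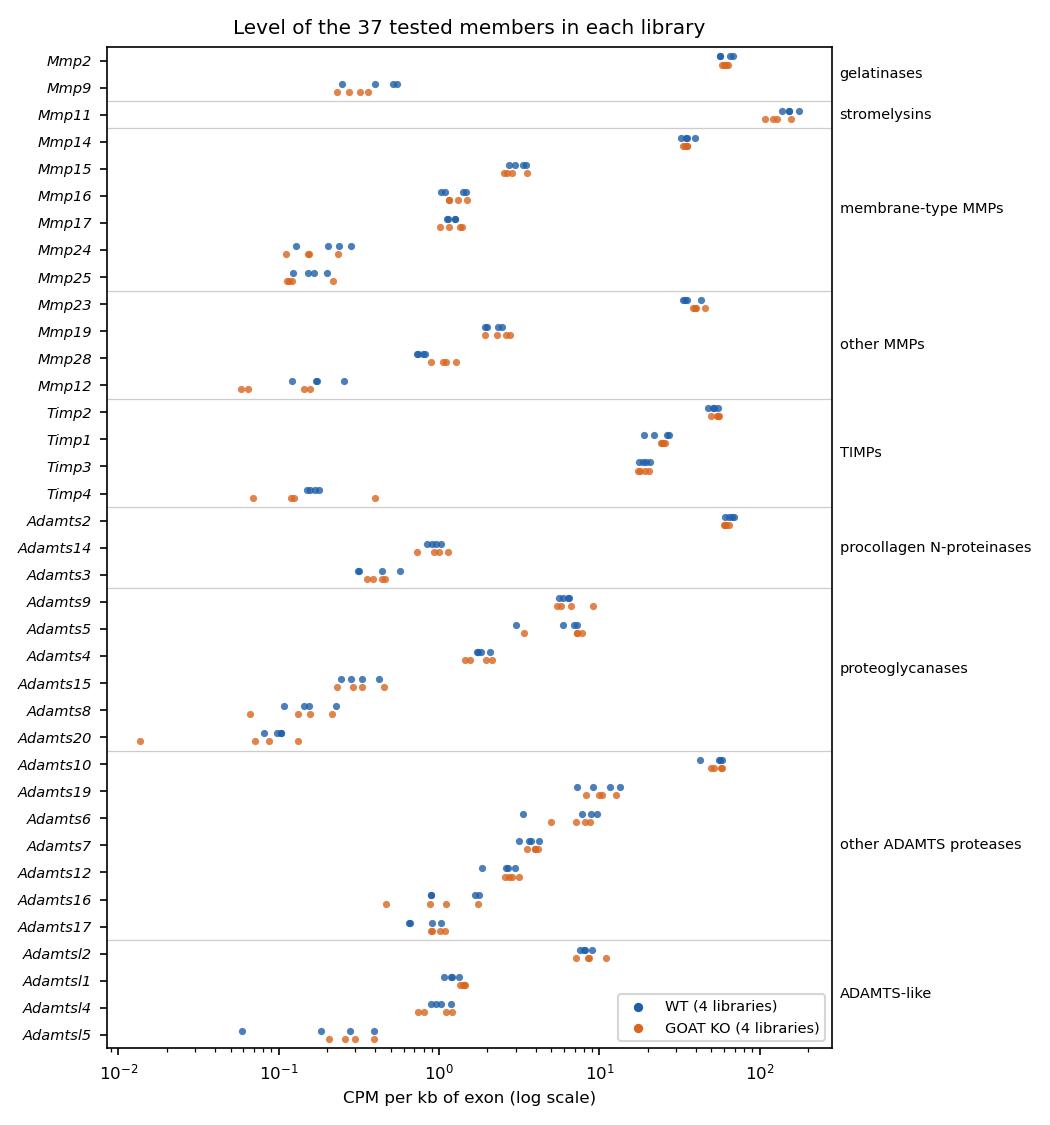
Level in CPM per kb of exon (log axis) of the 37 members that passed the filter, grouped by role, with 1 point per library (blue WT, orange GOAT KO). *Mmp11* sits highest, between 107.7 and 177, and the points of the 2 genotypes lie over each other for most genes.

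Summed over the 23 MMPs, the level was 298 ± 21.3 CPM per kb in WT and 275 ± 21.6 in GOAT KO (SD, n = 4 each). Over the 4 TIMPs it was 94.2 ± 6.52 in WT and 97.3 ± 3.47 in GOAT KO. The ratio of the TIMP sum to the MMP sum ran from 0.304 to 0.347 in WT and from 0.310 to 0.402 in GOAT KO, so the groups overlapped. The stromelysins, nearly all of it *Mmp11*, gave 155 ± 16.3 CPM per kb of the MMP sum in WT and 129 ± 21.2 in GOAT KO. The ADAMTS proteases summed to 160 ± 17.4 CPM per kb in WT and 159 ± 7.85 in GOAT KO.

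No member was called under the study's rule of unadjusted p under 0.05 and a log2 fold change beyond 0.5 in size, up or down, where 1.67% of all 16601 tested genes were (edgeR's quasi-likelihood test, 4 against 4). No member had an adjusted p under 0.05 either (Benjamini-Hochberg, 0.0241% of all genes), and the smallest among members was 0.983. An unadjusted p under 0.05 was found for 3 of the 37 members tested (4.62% of all genes), 2 higher in GOAT KO (2.49% of all genes) and 1 lower (2.13%). DESeq2 gave 3 at that threshold (4.02% of all genes) and limma-voom 4 (4.49%), and neither gave an adjusted p under 0.05 for any member. In 2 members the libraries of the 2 groups did not overlap (2.92% of all genes), both with GOAT KO higher (1.64%). Counts this small among 37 genes cannot be set apart from the background shares. The fold change was above 0 in 20 members and below 0 in 17, with a median of 0.02 on the log2 scale against 0.00 over all genes. The 95% interval of the difference lay within 0.5 of 0 in 22 members and within 1 of 0 in 30, and for the others the interval takes in differences beyond that size. In whole ovaries, fewer cells of a type and less RNA per cell cannot be told apart.

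**Figure D3:**
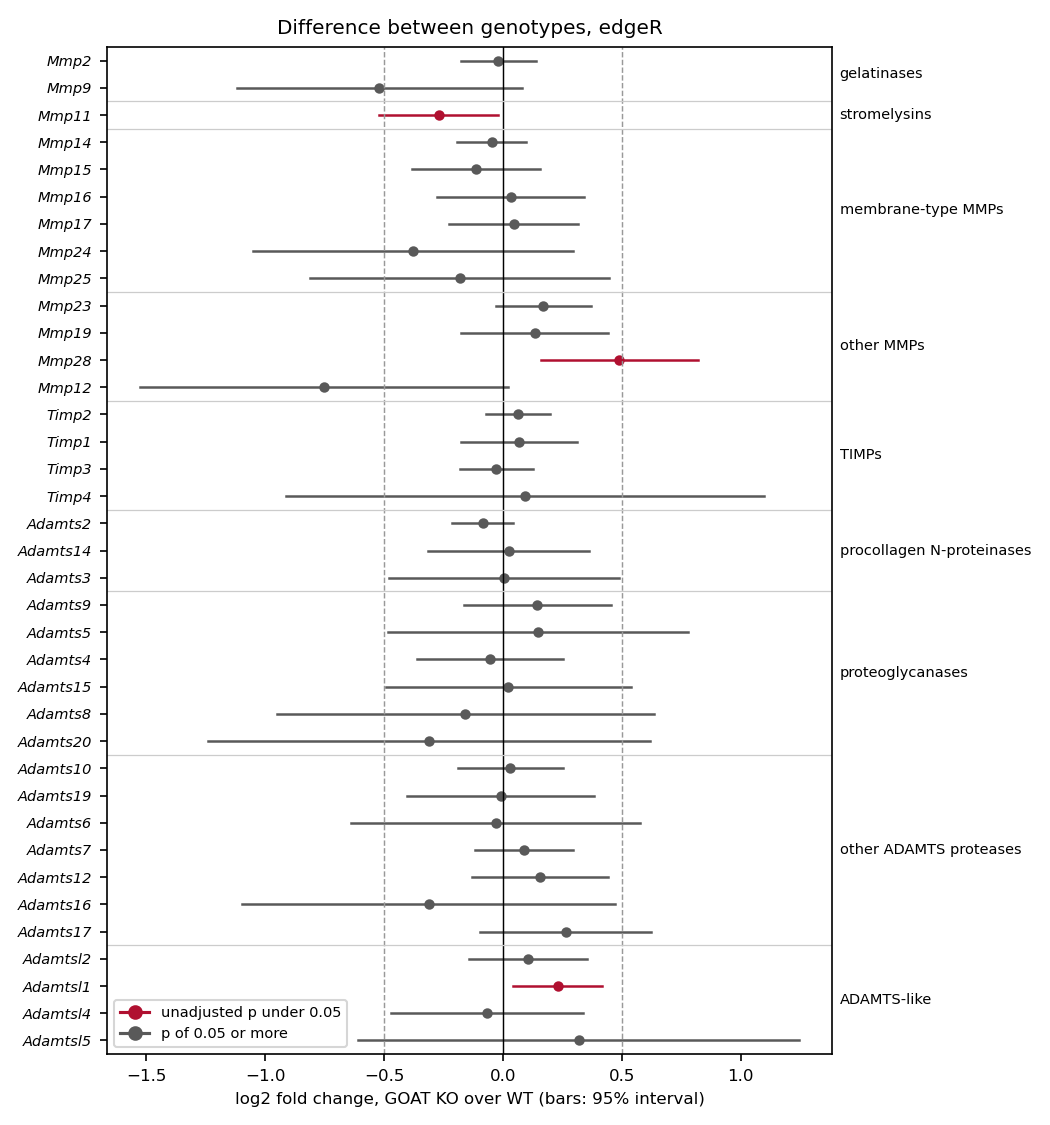
Log2 fold change of GOAT KO over WT (edgeR, 4 libraries each) with its 95% interval for the 37 members tested, grouped by role, with dashed lines at 0.5 on either side of 0. *Mmp28*, *Adamtsl1* and *Mmp11* (red) have an unadjusted p under 0.05, and the widest intervals belong to genes with few counts such as *Timp4* and *Adamtsl5*.

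Of the gelatinases, *Mmp2* (chr8:92827291-92853420), which degrades denatured collagen and basement membrane, was abundant and even between libraries. It measured 230, 191, 191 and 221 CPM in WT 1118, 1119, 1120 and 1121 and 197, 207, 214 and 202 CPM in GOAT KO 1139, 1140, 1141 and 1146, in the order used throughout. The difference on the log2 scale was -0.02 (SE 0.07, adjusted p = 0.988), with an interval from -0.18 to 0.14. *Mmp9*, the gelatinase of neutrophils and macrophages, was far lower, with 1.92, 1.83, 0.878 and 1.42 CPM in WT and 1.14, 1.28, 0.973 and 0.814 CPM in GOAT KO. The groups overlapped through WT 1120, and the log2 fold change was -0.52 (SE 0.27, adjusted p = 0.983). Without WT 1120 it was -0.71, and without both WT 1120 and GOAT KO 1139 it was -0.75 (adjusted p = 0.447), both at an unadjusted p under 0.05. Its level rested on a mean of 22.4 counts per library.

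The collagenases *Mmp1a*, *Mmp1b*, *Mmp8* and *Mmp13* were all under the filter, with at most 45 counts over the 8 libraries. The few reads of *Mmp1b* are uncertain. None crossed an annotated splice junction, and 10.8% of its exon bases are shared with *Mmp12* on the other strand. Among stromelysins the tested gene was *Mmp11* (chr10:75923222-75936496, minus strand), with 491, 423, 382 and 425 CPM in WT and 334, 438, 357 and 299 CPM in GOAT KO. The highest library was WT and the 3 lowest were GOAT KO, while GOAT KO 1140 stood above 3 of the WT libraries. The log2 fold change was -0.27 (SE 0.11, adjusted p = 0.983). Leaving out any 1 of 6 of the libraries took its unadjusted p above 0.05, while the value stayed between -0.38 and -0.19. It was -0.24 without GOAT KO 1139, and the p stayed under 0.05 without WT 1120 (-0.33) and with both left out (-0.29). Reads that cross the splice junctions of *Mmp11*, which assign a read to its strand, gave 233 ± 14 per 1000000 junction reads in WT and 208 ± 31.6 in GOAT KO (SD, n = 4 each). Of its exon bases 5.58% are shared with *Chchd10* on the other strand.

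Of the 6 membrane-type MMPs, anchored at the cell surface, 2 had a fold change above 0 and 4 below, and none passed p under 0.05. *Mmp14*, the activator of pro-MMP2, measured 236, 193, 211 and 206 CPM in WT and 209.8, 197, 209 and 202 CPM in GOAT KO. The groups overlapped fully, with a log2 fold change of -0.05 (SE 0.07, adjusted p = 0.983) and an interval of -0.19 to 0.10. *Mmp24*, known from the nervous system, had the smallest p of this group, at 0.60 to 1.32 CPM in WT and 0.523 to 1.10 CPM in GOAT KO (log2 fold change -0.38, SE 0.30, adjusted p = 0.983). The value was -0.21 without WT 1120, -0.24 without GOAT KO 1146, -0.60 without GOAT KO 1140 and -0.18 with both WT 1120 and GOAT KO 1139 left out. *Mmp15*, *Mmp16* and *Mmp17* lay between 1.21 and 3.01 CPM per kb, and *Mmp25* at 0.151 CPM per kb.

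*Mmp28* (chr11:83440768-83463071, minus strand), encoding epilysin, had the smallest p of all members. It measured 2.85, 2.83, 3.18 and 3.05 CPM in WT and 4.31, 4.09, 3.43 and 4.94 CPM in GOAT KO. Every GOAT KO library was above every WT library, with a log2 fold change of 0.49 (SE 0.15, adjusted p = 0.983). Its unadjusted p stayed under 0.05 without any 1 of the 8 libraries, and the value stayed between 0.40 and 0.57. The reads behind it were few, 62.8 counts per library on average, and rarely spliced. Over all libraries 6 reads crossed an annotated junction of *Mmp28*, none in the WT libraries and 0, 5, 0 and 1 in GOAT KO. That is 1.2 junction reads per 100 counts, the lowest of the 28 members with a mean of at least 50 counts, where *Timp1* had 30.6. A single exon holds 56.2% of the exon bases of *Mmp28*, but in *Timp2* a single exon holds 72.6% and 4.92 junction reads were found per 100 counts. Of the exon bases of *Mmp28*, 12% are shared with a gene on the other strand, 1700020L24Rik, and the part of either in the difference was not tested.

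Of the other MMPs, *Mmp23* was the most abundant, at 77.4, 79.6, 101 and 82.8 CPM in WT and 93.9, 90.3, 107 and 92.1 CPM in GOAT KO. WT 1120 was the 1 WT library inside the GOAT KO range. The log2 fold change was 0.17 (SE 0.09, adjusted p = 0.983). It was 0.26 without WT 1120 and 0.27 with both WT 1120 and GOAT KO 1139 left out (adjusted p = 0.371), where its unadjusted p was under 0.05, and 0.11 without GOAT KO 1141. *Mmp12*, macrophage elastase, had the largest fold change of the members tested and is named for that after its values were seen. It gave 1.24, 1.83, 0.878 and 1.25 CPM in WT and 0.419, 1.04, 1.13 and 0.465 CPM in GOAT KO, on 18.2 counts per library (log2 fold change -0.75, SE 0.35, adjusted p = 0.983). When 1 library was left out the value ran from -1.02 to -0.54, with an unadjusted p under 0.05 without WT 1120, GOAT KO 1140 or GOAT KO 1141. Of its exon bases 2.17% overlap *Mmp1b* on the other strand. *Mmp19* lay at 2.29 CPM per kb, with 28.3% of its exon bases shared with genes on the other strand.

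Most leukocyte markers lay on the same side as *Mmp9* and *Mmp12*. Of 6 markers 5 were tested and 4 of these were lower in GOAT KO, with a median log2 fold change of -0.25. *Itgam* went the other way, at 0.29 (SE 0.23), and *Csf1r* differed little, at -0.05 (SE 0.17). Only 1 marker, *Adgre1* (the macrophage marker F4/80), passed an unadjusted p under 0.05 (log2 fold change -0.36, adjusted p = 0.983). Over all genes 2.13% were lower at that threshold. The markers summed to 33.0 to 47.7 CPM in WT and 31.9 to 37.9 CPM in GOAT KO, with the T cell gene *Cd3e* at 0 to 3 counts. The part of these cells in the values of *Mmp9* and *Mmp12* was not tested.

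The TIMPs varied little. *Timp2* (chr11:118301069-118355740, minus strand), which inhibits MMPs and also takes part in the activation of pro-MMP2, was the most abundant. It measured 215, 185, 201 and 198 CPM in WT and 213, 195, 210.0 and 217 CPM in GOAT KO, a log2 fold change of 0.06 (SE 0.06, adjusted p = 0.983) with an interval of -0.07 to 0.20. *Timp1*, an inducible inhibitor of most soluble MMPs, measured 24.3, 19.4, 23.5 and 16.9 CPM in WT and 21.4, 22.2, 21.8 and 22.7 CPM in GOAT KO. The GOAT KO values all lay inside the WT range (log2 fold change 0.07, SE 0.11, adjusted p = 0.983). *Timp3*, which is bound to the matrix and also inhibits ADAMTS proteases, measured 153, 143, 159.7 and 168 CPM in WT and 166, 147, 142 and 157 CPM in GOAT KO (log2 fold change -0.03, SE 0.07, adjusted p = 0.986). Of its exon bases 21.3% are shared with *Syn3* on the other strand, in whose intron it lies.

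*Timp4*, known from heart and fat tissue, was the exception among the inhibitors. It measured 1.05, 0.889, 0.988 and 0.927 CPM in WT and 2.33, 0.733, 0.410 and 0.697 CPM in GOAT KO. GOAT KO 1139 was the highest of all libraries and the other 3 GOAT KO libraries were below every WT library. With all 8 libraries the log2 fold change was 0.09 (SE 0.46, adjusted p = 0.990), and without GOAT KO 1139 it was -0.66, a change of direction at an unadjusted p under 0.05. The level of *Timp4* rested on a mean of 17.4 counts per library. Over all libraries 4 reads crossed an annotated junction of *Timp4*, 0 of them in GOAT KO 1139. The adipose markers were highest in the same library in 5 of 5 genes, for example *Adipoq* at 96.7 CPM against 0.291 to 2.99 CPM elsewhere and *Cfd* at 162 CPM. The part of this tissue in the value of *Timp4* was not tested.

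**Figure D4:**
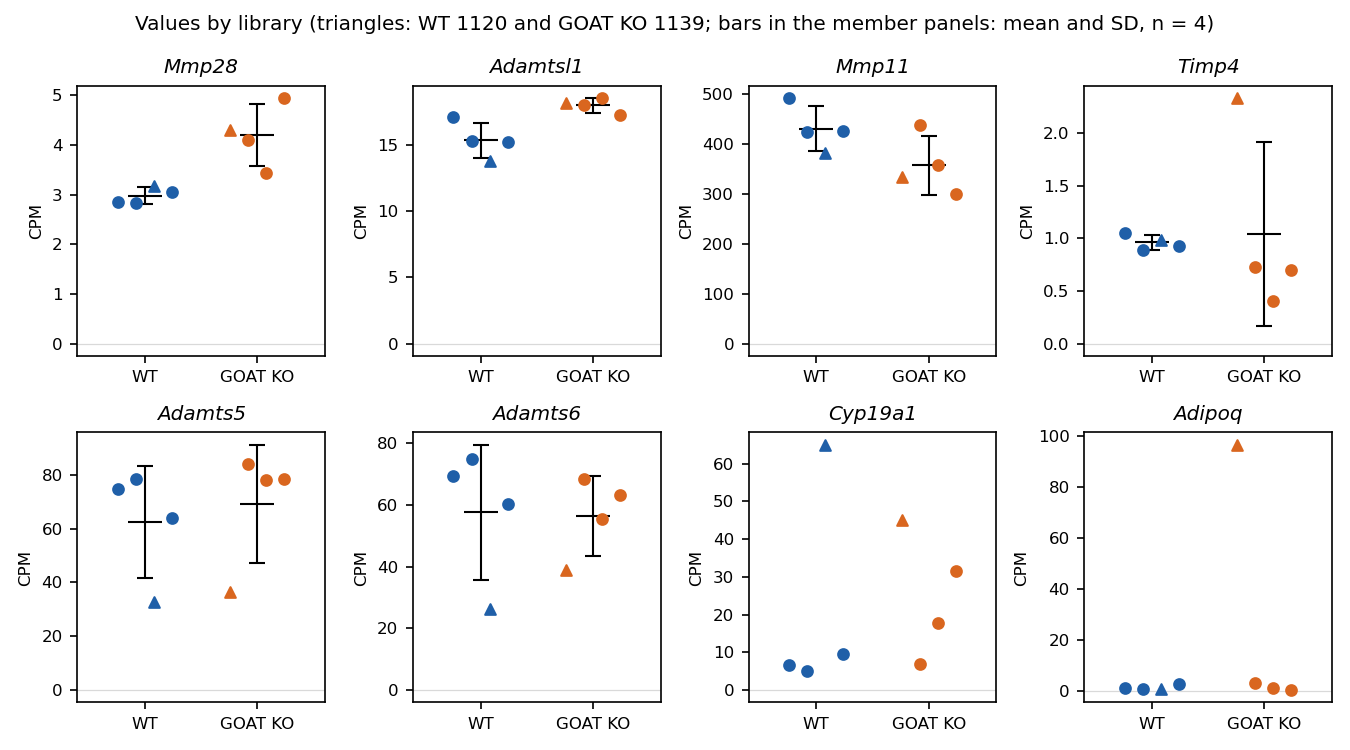
CPM by library for 6 members and 2 marker genes, with 1 point per library (blue WT, orange GOAT KO), triangles for WT 1120 and GOAT KO 1139, and the mean and SD of 4 libraries as bars for the members. *Timp4* and *Adipoq* are highest in GOAT KO 1139, and *Adamts5* and *Adamts6* are lowest in the 2 triangles, where *Cyp19a1* is highest.

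Of the procollagen N-proteinases, which trim fibrillar procollagens, *Adamts2* (chr11:50602084-50807573) was the most abundant. It measured 625, 598, 570.1 and 644 CPM in WT and 556, 577, 597 and 568 CPM in GOAT KO, a log2 fold change of -0.08 (SE 0.06, adjusted p = 0.983) with an interval of -0.21 to 0.04. Without WT 1120 it was -0.12, at an unadjusted p under 0.05 and with no overlap between the groups, and with GOAT KO 1139 also left out it was -0.10, with the p above 0.05. *Adamts14* and *Adamts3* stood at 0.941 and 0.410 CPM per kb, with fold changes of 0.03 and 0.01 on the log2 scale.

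The proteoglycanases cleave versican and aggrecan, and of the 6 members 3 had a fold change above 0 and 3 below. *Adamts9* measured 97.1, 84.5, 96.3 and 89.2 CPM in WT and 137, 101, 86.5 and 81.6 CPM in GOAT KO. GOAT KO 1139 was highest, and the log2 fold change of 0.14 (SE 0.14, adjusted p = 0.983) became -0.04 without it. *Adamts5* measured 74.8, 78.5, 32.8 and 63.8 CPM in WT and 36.4, 83.9, 77.9 and 78.3 CPM in GOAT KO. In each genotype 1 library lay at about the same low level while the others lay between 63.8 and 83.9 CPM. *Adamts4*, *Adamts15*, *Adamts8* and *Adamts20* ran from 0.0858 to 1.81 CPM per kb.

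*Adamts6*, a protease linked to fibrillin microfibrils, showed the same 2 libraries apart, with 69.3, 74.9, 26.2 and 60.5 CPM in WT and 38.9, 68.4, 55.3 and 63.1 CPM in GOAT KO. *Adamts16*, *Adamts6* and *Adamts5* were the 3 of 28 well-counted members whose highest library exceeded the lowest by more than 2 times, as 6.04% of all 13434 such genes did. For *Adamts16* the split was another one, with 12.1, 11.4, 6.09 and 6.05 CPM in WT and 7.60, 11.9, 6.04 and 3.20 CPM in GOAT KO. Of all 37 tested members, *Adamts5*, *Adamts6* and *Adamts10* were lower in both WT 1120 and GOAT KO 1139 than in each of the other 6 libraries, and *Mmp15* and *Adamtsl5* were higher. Over all tested genes 11% were lower in both and 11.3% higher, so this split ran through the whole table.

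In the same pair of libraries some steroidogenic genes stood above all others and some did not. *Cyp19a1*, the aromatase of granulosa cells, measured 65.0 and 45.2 CPM there and 5.06 to 31.6 CPM in the other 6. *Cyp17a1*, the androgen-forming enzyme of theca cells, measured 355 and 601 CPM there and 42.4 to 138 CPM in the others. *Hsd3b1*, an enzyme of progesterone synthesis, lay at 2226 and 1851 CPM, inside the range of the others (1658 to 2284 CPM). Of the 6 theca and steroidogenic markers 2, and of the 6 granulosa markers 2, were higher in both than in each of the others, and all 5 blood markers were lower. The theca and steroidogenic markers summed to 1967 to 3118 CPM in WT and 2493 to 3165 CPM in GOAT KO. With these 2 libraries left out, the log2 fold change was 0.14 (SE 0.08) for *Adamts5* and -0.13 (SE 0.10) for *Adamts6*. What the libraries share with the levels of these proteases was not tested.

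Of the other ADAMTS proteases, *Adamts10*, which like *Adamts17* acts on fibrillin microfibrils, was the most abundant. It measured 479, 469, 348 and 458 CPM in WT and 409, 472, 481 and 431 CPM in GOAT KO, a log2 fold change of 0.03 (SE 0.10, adjusted p = 0.986). WT 1120 was the lowest, and without it the value was -0.07. *Adamts17* had the smallest p of the group, with 7.99, 7.06, 5.05 and 5.12 CPM in WT and 8.44, 7.88, 7.01 and 6.92 CPM in GOAT KO (log2 fold change 0.26, SE 0.16, adjusted p = 0.983). The value was 0.17 without WT 1120, 0.17 without WT 1121, 0.11 with both WT 1120 and GOAT KO 1139 left out, and 0.40 without WT 1118, where its unadjusted p was under 0.05. *Adamts19*, known for expression in the gonad, spanned 102 to 189 CPM in WT and 116 to 178 CPM in GOAT KO. *Adamts13*, made in the liver and known to cleave von Willebrand factor, had 0 to 4 counts, and *Adamts18* 4 to 15.

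Among the ADAMTS-like genes, *Adamtsl1* (chr4:85514172-86428385), encoding the matrix protein punctin, was the second member without overlap. It measured 17.0, 15.3, 13.8 and 15.2 CPM in WT and 18.1, 18, 18.5 and 17.2 CPM in GOAT KO. The highest WT and the lowest GOAT KO library were close, and the log2 fold change was 0.23 (SE 0.09, adjusted p = 0.983). It was 0.18 without WT 1120, 0.18 with both WT 1120 and GOAT KO 1139 left out and 0.21 without GOAT KO 1141, and its unadjusted p was then above 0.05. *Adamtsl2*, which binds fibrillin and latent TGF-beta complexes, measured 64.4, 71.9, 65.0 and 60.1 CPM in WT and 87.4, 69.1, 67.5 and 57.4 CPM in GOAT KO. GOAT KO 1139 was again the highest, and the log2 fold change of 0.11 (SE 0.11, adjusted p = 0.983) was -0.01 without it. *Adamtsl4* and *Adamtsl5* stood at 0.991 and 0.259 CPM per kb, and *Adamtsl3* had 2 to 9 counts.

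The partners of the proteases were read from 3 lists. Of 10 tested activators and cell-surface regulators, such as plasminogen activators and furin-type convertases, none was called under the study's rule. Only 1, *Pcsk5*, had an unadjusted p under 0.05 (log2 fold change 0.16, SE 0.06, adjusted p = 0.983), where 2.49% of all genes were higher at that threshold. Of 8 tested inhibitors and related genes outside the TIMPs, none was called. An unadjusted p under 0.05 was found for 1, *Spock2* (log2 fold change -0.20, SE 0.09, adjusted p = 0.983), where 2.13% of all genes were lower at that threshold. Whether *Spock2* inhibits these proteases was not tested. Of 22 matrix substrates none was called, but 5 had an unadjusted p under 0.05, all higher in GOAT KO (2.49% of all genes): *Ltbp1* (0.40), *Col1a1* (0.36), *Col1a2* (0.28), *Col3a1* (0.26) and *Fn1* (0.24), in log2 fold change. The median over the 22 substrates was 0.13 and 19 were above 0, beside 8282 of 16601 over all genes. Whether the 22 vary independently was not tested. Their sum ran from 7836 to 9294 CPM in WT and from 8782 to 9991 CPM in GOAT KO, so the groups overlapped. GOAT KO 1139 was the highest library for *Ltbp1* and *Col3a1*, but not for *Col1a1*, *Col1a2* or *Fn1*, and its part in these values was not tested. These genes of the 3 lists are named because their count was small, after their values were seen, and none had an adjusted p under 0.05.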

How the data were processed

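The authors sequenced total RNA as 50 bp single reads, aligned them with TopHat2 2.0.14 (submitters' notes, GRCm38) and deposited counts per gene symbol, whole numbers that are not normalized. The deposited junction counts are reads across each splice junction per library. The counting tool and its use of strand are not given in the sources used here. The StringTie 1.0.4 transcripts and the mapping summary were not used.

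Counts of all genes were tested with edgeR 4.0.16 (R 4.3.3), with TMM scaling and the low-count filter filterByExpr. Groups were compared by the quasi-likelihood test of 4 GOAT KO against 4 WT libraries, with Benjamini-Hochberg adjustment over all genes. The filter's minimum of 10 counts was applied as a cutoff of 0.566 CPM, to be reached in at least 4 libraries. It also asked for 15 counts in total. A tested gene could therefore have fewer than 10 counts in some libraries. CPM per kb used merged exon lengths of the GENCODE annotation of GRCm38, a later release than the authors'. All 50 members had a position, and 35 a RefSeq promoter entry used here. Same-group libraries differed by more than sampling noise (chi-square per gene 4.22 to 27.1). The test was checked on simulated counts. Replicates are separate mice. Depths were 16147216 to 19481798 counts, and limits at 0 counts cover counting error only.

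Full statistics are given for members with an unadjusted p under 0.05, each TIMP, and in each role group the tested member with the smallest p and the one with the highest CPM per kb. Members were set by symbol and the lists by role or cell type, both with earlier results of these data known. Alternatives were RLE scaling, no filter, DESeq2 1.42.0, limma-voom (limma 3.58.1), a fold threshold of 0.3, and leaving out libraries.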

Additional observations from a re-analysis of the deposited data

Results flagged for a closer look

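Within each group of 4 libraries, the highest or lowest library was compared with the other 3 by Dixon's ratio at its 95% critical value. Of 74 groups, 2 for each of the 37 tested members, 4 held a library past it (5.41%), while chance gives about 1 in 20. GOAT KO 1139 was low for *Adamts5*, at 36.4 CPM, and high for *Timp4*, at 2.33 CPM. WT 1120 was low for *Adamts10*, at 348 CPM. GOAT KO 1140 was high for *Mmp25*, at 1.16 CPM, a gene with 14 counts per library on average.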

How the results depend on the processing

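No paired analysis was possible because the sample labels name no litter or other link between WT and GOAT KO animals. No member had an adjusted p under 0.05 under any alternative run. Under the study's rule, 0 members were called with all 8 libraries, RLE scaling or DESeq2, 2 without the filter (*Mmp3*, *Mmp12*; 2.52% of all genes), 1 by limma-voom (*Mmp12*; 1.55%), 1 at a fold threshold of 0.3 (*Mmp28*; 2.85%), 2 with WT 1120 and GOAT KO 1139 left out (*Mmp9*, *Mmp28*; 2.39%), and 0 to 3 when 1 library was left out. The 3 came without WT 1120 (*Mmp28*, *Mmp9*, *Mmp12*), where 2.61% of all genes were called. Without GOAT KO 1139 it was *Timp4* (1.96% of all genes), without GOAT KO 1140 *Mmp12* (1.9%), and without GOAT KO 1141 *Mmp28* and *Mmp12* (1.69%). Members without overlap numbered 2 to 6 when 1 library was left out, the 6 without WT 1120 (10.8% of all genes), 4 without GOAT KO 1140 (5.13%), and 7 with both left out (15.7%), where fewer libraries overlap less by construction. The count at an unadjusted p under 0.05, added after seeing the data, was 5 without the filter (4.44% of all genes) and 2 to 6 when 1 library was left out, the 6 without WT 1120 (10.6%).

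Of the fold changes of the 17 named members under the alternatives, 190 kept direction and side of the threshold, 9 lost it, 6 gained it and 16 changed direction. The log2 fold change ranged, when 1 library was left out, from -0.069 to 0.076 for *Adamts10*, from -0.036 to 0.23 for *Adamts9*, from -0.015 to 0.19 for *Adamtsl2*, from -0.093 to 0.0088 for *Mmp14*, from -0.063 to 0.031 for *Mmp2*, from -0.026 to 0.14 for *Timp1*, from -0.071 to 0.0081 for *Timp3* and from -0.66 to 0.37 for *Timp4*. With WT 1120 and GOAT KO 1139 left out it was -0.024 for *Adamts10*, -0.012 for *Adamts9*, -0.018 for *Adamtsl2* and -0.65 for *Timp4*, and limma-voom gave -0.21 for *Timp4*. The cause of these changes was not tested. Scaling moved the median of all genes by less than 0.01. The widest intervals belonged to members with few counts such as *Timp4*. *Adamts16*, at 140 counts per library on average, also had a wide one, from -1.10 to 0.47. Calls of *Mmp9*, *Mmp12* and *Timp4* came and went with single libraries.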
